A study of Sus scrofa with 12 samples.

Results

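The genes described here encode the proteins that hold epithelial cells to one another: the tight junction, desmosome, gap junction, cadherin, catenin and nectin families, with EPCAM, RAB25, ESRP and GRHL genes, which are active in epithelia. Members were picked out of the table by gene symbol, by a rule that names no measured value but was set with earlier results of these data known, and numbered 71 of 30461 gene rows (70 symbols, since NECTIN2 stood on 2 rows). Of these, 48 passed the filter on low counts and were tested. RNA was sequenced from the 3′ end in 12 libraries of pig oviduct epithelial cells, in 3 groups of 4. Fresh cells were single cells scraped from the oviduct. The spheroids, clusters of cells that assembled in culture, were formed either in DMEM/F12 or in a medium named only as incubation medium. The library names add FBS for the former and Diff for the latter. The labels name no strain, age, cycle stage, culture time or composition of either medium, and do not say whether libraries of a group came from separate animals, so p-values measure the spread between these libraries. By its title the study describes a way to make such spheroids uniform and in number, and the comparisons here set each medium against the fresh cells and one medium against the other.

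Epithelial cells seal the space between them with tight junctions, in which claudins form the strands and set which ions pass, occludin and related MARVEL proteins and JAM proteins accompany them, and the scaffold proteins of the TJP family tie them to actin. Below these lie adherens junctions, in which cadherins bind across the gap and catenins link them to the cytoskeleton, with nectins beside them. Desmosomes anchor keratin filaments through plakins and plakophilins, and connexins form the channels of gap junctions. In the oviduct this barrier separates the luminal fluid that bathes gametes and embryos from the tissue.

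Total counts per library ranged from 5045187 to 8603774, and the fresh cell libraries were the shallowest. Levels are given as CPM, counts scaled to library size with TMM factors, for replicates 1 to 4 in that order. Since reads came from the 3′ end they were not divided by transcript length, and levels are compared between groups for 1 gene, not between genes. A gene is called higher or lower where edgeR's quasi-likelihood test with Benjamini-Hochberg adjustment gave an adjusted p under 0.05 over the 14070 genes tested. The floor was 3 counts in a library, the limit set by a count of 0, or 0.348 to 0.588 CPM. Where a call depended on 1 library, the values with each such library left out singly are given as "without" that library. Summed over the members, the level was 6047 to 6782 CPM in fresh cells, 9293 to 12072 in DMEM/F12 and 6230.3 to 6709.7 in incubation medium spheroids. The highest of these sums was that of DMEM/F12 replicate 3, which held the highest DMEM/F12 value for 24 of the 48 tested members (50%) and for 31.7% of all tested genes. Without it the counts of members called higher and lower in DMEM/F12 spheroids against fresh cells were 28 and 12, as with it, and between the media 6 were higher and 20 lower in incubation medium, against 6 and 24 with it.

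The epithelial markers CLDN4, CDH1 and EPCAM were all far above the floor in every library. They are members themselves, so their levels are no separate check of what the cells were. EPCAM, an epithelial surface adhesion protein, was at 1049, 901, 888 and 777 CPM in fresh cells, 617, 513, 804 and 579 in DMEM/F12 and 692, 596, 929 and 642 in incubation medium spheroids. The 3 groups overlapped, and the fresh cells held the highest value. EPCAM fell in DMEM/F12 spheroids (log2 fold change -0.52, SE 0.15, adjusted p = 0.00741) and was not called in incubation medium spheroids (-0.34, SE 0.15, adjusted p = 0.0625). It was called there without fresh cell replicate 4 or incubation medium replicate 3 (log2 fold change -0.47 to -0.40, adjusted p = 0.00948 to 0.043; span of p over all settings tried 0.00738 to 0.2) and with the replicate block (log2 fold change -0.36, adjusted p = 0.00738). It was also called with library totals, with a minimum mean of 10 counts, with only the groups compared and with thinned counts (adjusted p = 0.0385, 0.0446, 0.0422 and 0.0383). Between the media its difference was 0.19 (95% interval -0.14 to 0.52, adjusted p = 0.417). Markers of other cells moved as well. The summed level of 7 multiciliated cell markers was 1119.5 to 1307 CPM in fresh cells, 128 to 327 in DMEM/F12 and 131 to 232 in incubation medium spheroids, and all 7 were called lower in both media. For 5 oviduct secretory markers the sums were 19234 to 30257, 1021 to 2053 and 1050.2 to 2076 CPM, with 3 called lower and 1 higher in each medium against fresh cells. OVGP1 alone averaged 22241 CPM in fresh cells, 400 in DMEM/F12 and 471 in incubation medium spheroids, so the fall in the sum follows that gene above all. The 1 called higher was MUC1, at means of 159, 545 and 474 CPM, and MSX1 was not called. For 7 stromal and smooth muscle markers the sums were 64.5 to 97.2, 13.8 to 36.6 and 7.88 to 14.6 CPM. Of the 6 that passed the filter, 3 fell in DMEM/F12 and 5 in incubation medium spheroids. For 6 leukocyte markers the sums were 23.4 to 34.5, 19.7 to 35.8 and 7.93 to 19.8 CPM. Of the 4 that passed the filter, 2 fell in each medium and 1 rose in DMEM/F12. There CORO1A rose (log2 fold change 2.03, adjusted p = 9.26e-07). PTPRC (-1.46, adjusted p = 0.00151) and TYROBP (-1.30, adjusted p = 0.00714) fell, so the leukocyte sum in DMEM/F12 covers opposite changes. The smooth muscle gene DES was at 0 in every fresh cell library. Falls made up 100% of the tested multiciliated markers and 60% of the secretory ones in each medium. For stroma and smooth muscle they made up 50% in DMEM/F12 and 83.3% in incubation medium, and for leukocytes 50% in each. Over all tested genes falls made up 35.7% in DMEM/F12 and 35.8% in incubation medium, and rises 35.1% and 35.8%. Whether the shares of these short lists differ from those of all genes was not tested. In such bulk samples fewer cells of a type and less RNA per cell cannot be told apart, and the part of these shifts in the results was not tested.

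In DMEM/F12 spheroids most junction genes were higher than in fresh cells. The claudin gene CLDN6 (log2 fold change 4.42), occludin (2.16), CLDN1 (1.99), E-cadherin (1.604) and the cadherin CDH5 (3.24) rose, while CLDN10 (-3.85), CLDN8 (-3.31) and the connexins GJA1 (-2.97) and GJB1 (-3.01) fell. Of the 48 tested members, 28 (58.3%) were called higher, against 35.1% of all tested genes, and 12 (25%) lower, against 35.7%. The groups did not overlap for 40 members (83.3%), against 65.4% of all tested genes. The median log2 fold change was 0.69 for the members and -0.014 for all tested genes.

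In incubation medium spheroids the changes from fresh cells ran in both directions. CLDN6 (2.92), CDH5 (1.91), the plakophilin PKP3 (1.86), periplakin (1.48) and RAB25 (1.35) rose, and CLDN10 (-4.01), CLDN8 (-3.16), GJA1 (-2.04) and CLDN4 (-0.71) fell, all as log2 fold changes. Here 23 members (47.9%) were called higher, against 35.8% of all tested genes, and 13 (27.1%) lower, against 35.8%. The groups did not overlap for 32 members (66.7%), near the 64.9% of all tested genes. Median log2 fold changes were 0.37 and -0.0071. This comparison uses the same fresh cell libraries as the one before.

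Between the media, more junction genes were lower than higher in incubation medium spheroids. PKP1 (-3.25), CLDN6 (-1.50), CLDN4 (-1.43), CDH5 (-1.33), E-cadherin (-1.0) and occludin (-0.98) were lower than in DMEM/F12 spheroids, and GJB1 (1.45), PKP4 (1.03), GJA1 (0.93) and RAB25 (0.68) were higher, again as log2 fold changes. There 24 members (50%) were called lower, against 12.3% of all tested genes, and 6 (12.5%) higher, against 12.7%. The libraries of the media did not overlap for 28 members (58.3%), against 26.9% of all tested genes. The median log2 fold change was -0.39 for the members and -0.0035 for all tested genes. These shares set a list of fairly abundant genes (median of the mean levels 46.2 CPM) beside all tested genes (median 20.8 CPM). They also describe only members that passed the filter, 4 of which reached its level of 1.3 CPM in 1 group alone (CDH22, CLDN2, CLDN22 and CTNNA2). Among the 41 that reached it in every group, 24 were called higher and 9 lower in DMEM/F12 spheroids against fresh cells, 19 and 10 in incubation medium spheroids against fresh cells, and 5 and 21 in incubation medium against DMEM/F12. Over all tested genes, not restricted in this way, the shares in the same order were 35.1% and 35.7%, 35.8% and 35.8%, and 12.7% and 12.3%.

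**Figure D1:**
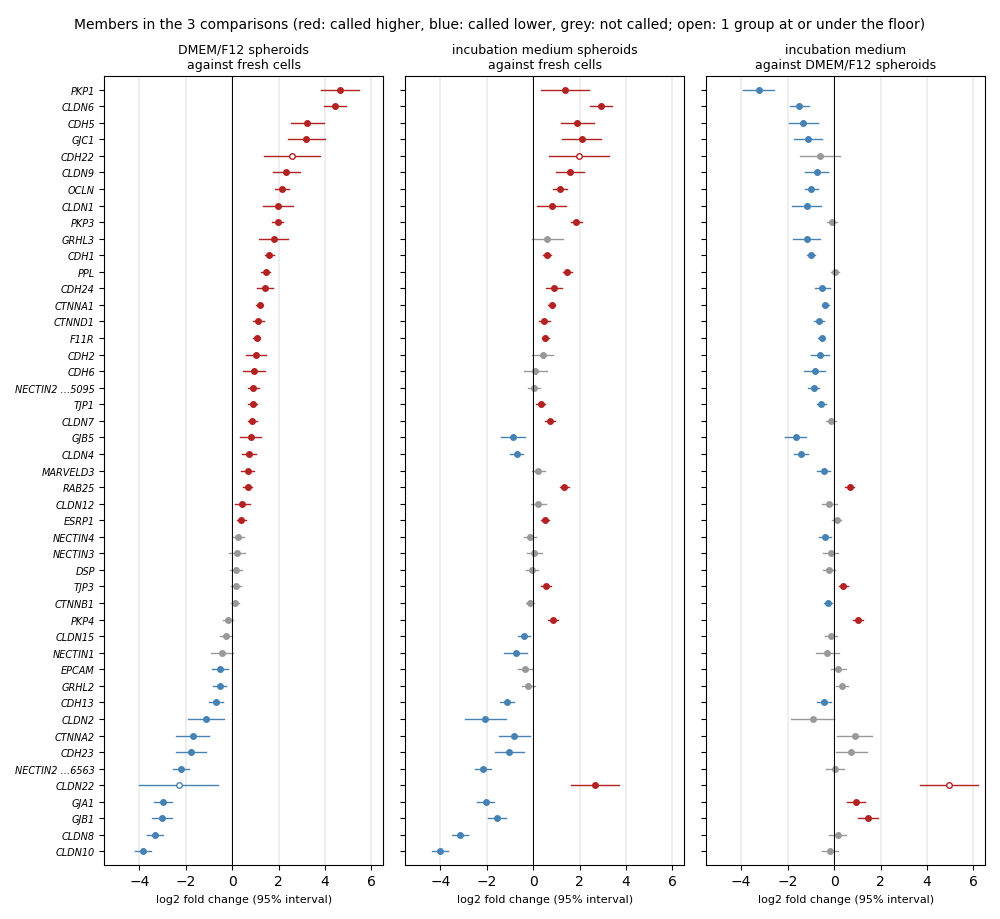
Log2 fold change (x axes) of the tested members, 1 left out (rows, ordered by the left panel) in the 3 comparisons, with its 95% interval. Red marks genes called higher, blue called lower, grey not called, and open circles a group at or under the floor. Most points of the left panel lie to the right of 0 (28 called higher) and most called points of the right panel to the left (24 called lower).

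Among the claudins, 17 rows carried a symbol of the family and 11 were tested. CLDN6, best known from embryonic epithelia, was at 29.9, 30.7, 26.2 and 18.6 CPM in fresh cells, 449, 597, 682 and 533 in DMEM/F12 and 137, 212, 269 and 181 in incubation medium spheroids. The 3 groups were fully separated, with fresh cells lowest and DMEM/F12 spheroids highest. It rose 21.4-fold in DMEM/F12 spheroids (log2 fold change 4.42, SE 0.22, adjusted p = 1.03e-09) and 7.57-fold in incubation medium spheroids (2.92, SE 0.21, adjusted p = 2.74e-08), and was 2.83-fold lower in the second medium than in the first (-1.50, SE 0.19, adjusted p = 9.11e-05). CLDN9, the direct neighbour of CLDN6 in the RefSeq gene order of Sscrofa11.1, was at 2.44, 2.15, 1.31 and 1.57 CPM in fresh cells, 6.33, 11.6, 11.5 and 8.88 in DMEM/F12 and 4.29, 5.34, 7.38 and 5.64 in incubation medium spheroids. Every spheroid library lay above every fresh cell library. CLDN9 rose in both media (log2 fold change 2.34, SE 0.27, adjusted p = 3.11e-06, and 1.58, SE 0.29, adjusted p = 0.000177). Its level in incubation medium was below that in DMEM/F12 (-0.76, SE 0.23, adjusted p = 0.0252), a call lost without DMEM/F12 replicates 2 or 3 or incubation medium replicates 1 or 2 (log2 fold change -0.73 to -0.64, adjusted p = 0.0633 to 0.0822; span of p over all settings tried 0.0074 to 0.0822). This was the only pair of neighbouring members in which both were tested.

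CLDN1, a barrier-forming claudin, was at 80.9, 148, 77.4 and 72.5 CPM in fresh cells, 215, 453, 497 and 339 in DMEM/F12 and 94.96, 208, 190.0 and 168 in incubation medium spheroids. All DMEM/F12 libraries lay above the other groups, and incubation medium replicate 1 lay within the range of the fresh cells, of which replicate 2 was highest. CLDN1 rose 3.96-fold in DMEM/F12 spheroids (log2 fold change 1.99, SE 0.30, adjusted p = 3.63e-05) and was lower in incubation medium than in DMEM/F12 (-1.19, SE 0.29, adjusted p = 0.00842). Its rise in incubation medium against fresh cells (0.80, SE 0.29, adjusted p = 0.0252) was lost without fresh cell replicates 1, 3 or 4 or incubation medium replicates 2 or 3 (log2 fold change 0.69 to 0.74, adjusted p = 0.0543 to 0.0725; span of p over all settings tried 0.000681 to 0.0725).

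CLDN10, which forms paracellular ion channels, showed the largest fall of the tested claudins in both media. It was at 479.9, 317, 403 and 412 CPM in fresh cells, 30.2, 26.6, 26.1 and 28.8 in DMEM/F12 and 20.04, 20.02, 28.7 and 31.03 in incubation medium spheroids. The lowest fresh cell library stood above the highest spheroid library by a wide gap. CLDN10 fell 14.4-fold in DMEM/F12 spheroids (log2 fold change -3.85, SE 0.16, adjusted p = 1.79e-10) and 16.2-fold in incubation medium spheroids (-4.01, SE 0.16, adjusted p = 1.37e-10). CLDN8, a claudin of tight, ion-restricting epithelia, was at 69.6, 80.5, 69.2 and 59.8 CPM in fresh cells, 7.91, 7.20, 4.63 and 8.16 in DMEM/F12 and 7.04, 8.68, 6.65 and 8.87 in incubation medium spheroids. Again no spheroid library reached the fresh cells. It fell 9.95-fold (log2 fold change -3.31, SE 0.16, adjusted p = 5.72e-10) and 8.95-fold (-3.16, SE 0.16, adjusted p = 8.18e-10). Neither gene was called between the media, where the differences were -0.16 for CLDN10 (95% interval -0.50 to 0.17, adjusted p = 0.491) and 0.15 for CLDN8 (-0.22 to 0.53, adjusted p = 0.574).

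CLDN4, a barrier claudin and epithelial marker, changed in opposite directions in the media. It was at 1707, 2054, 1391 and 1473 CPM in fresh cells, 2436, 2447, 3438 and 2559.6 in DMEM/F12 and 1071, 893, 1009.7 and 1071 in incubation medium spheroids. The groups were separate, with DMEM/F12 spheroids highest, fresh cells between and incubation medium spheroids lowest. CLDN4 rose 1.64-fold in DMEM/F12 spheroids (log2 fold change 0.72, SE 0.14, adjusted p = 0.000274), fell 1.64-fold in incubation medium spheroids (-0.71, SE 0.14, adjusted p = 0.000285) and was 2.69-fold lower in incubation medium than in DMEM/F12 (-1.43, SE 0.14, adjusted p = 1.04e-05). CLDN7, found along the lateral membrane of many epithelia, was at 341, 370.0, 379 and 336 CPM in fresh cells, 600.3, 592, 767 and 657 in DMEM/F12 and 578, 576, 671 and 553 in incubation medium spheroids. It was higher in all 8 spheroid libraries, and the media overlapped. The rise was 1.83-fold (log2 fold change 0.88, SE 0.096, adjusted p = 1.58e-06) and 1.67-fold (0.74, SE 0.096, adjusted p = 8.09e-06), with a difference between the media of -0.14 (95% interval -0.34 to 0.066, adjusted p = 0.324).

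Of the other tested claudins, CLDN15, a former of cation pores, averaged 55.9 ± 9.14 CPM in fresh cells, 46.5 ± 5.77 in DMEM/F12 and 42.2 ± 4.40 in incubation medium spheroids (SD, n = 4). It fell in incubation medium spheroids with overlapping libraries (log2 fold change -0.40, SE 0.13, adjusted p = 0.0103). In DMEM/F12 spheroids it was not called (-0.26, SE 0.12, adjusted p = 0.0736), but was called without DMEM/F12 replicate 4 or fresh cell replicate 1 (log2 fold change -0.35 to -0.32, adjusted p = 0.0182 to 0.0469; span of p over all settings tried 0.0164 to 0.257) and with the replicate block (log2 fold change -0.26, adjusted p = 0.0169), and with thinned counts (log2 fold change -0.34, adjusted p = 0.0164). CLDN12 averaged 11 ± 1.82 CPM in fresh cells, 14.9 ± 0.731 in DMEM/F12 and 12.9 ± 2.44 in incubation medium spheroids, and its small rise in DMEM/F12 spheroids (log2 fold change 0.44, SE 0.16, adjusted p = 0.0206) was lost without fresh cell replicates 1 or 2 (log2 fold change 0.36 to 0.40, adjusted p = 0.058 to 0.064; span of p over all settings tried 0.0117 to 0.064). In incubation medium CLDN12 was called only without incubation medium replicate 3 (log2 fold change 0.36, adjusted p = 0.0469; span of p over all settings tried 0.0469 to 0.475), against an adjusted p of 0.205 with all libraries. CLDN2, a cation and water pore, averaged 2.04 ± 0.720 CPM in fresh cells, 0.915 ± 0.384 in DMEM/F12 and 0.470 ± 0.166 in incubation medium spheroids and fell in both media (log2 fold change -1.13, SE 0.37, adjusted p = 0.0126, and -2.05, SE 0.41, adjusted p = 0.000409), the first being lost without fresh cell replicate 4 (log2 fold change -0.91, adjusted p = 0.0537; span of p over all settings tried 0.0072 to 0.0537). CLDN22 was near the floor outside incubation medium, in fresh cells and DMEM/F12 spheroids, with 18 and 6.32 counts summed over 4 libraries, against 164 in incubation medium spheroids. Its level there was 5.49, 2.67, 4.06 and 8.87 CPM, above all other libraries (adjusted p = 0.000192 against fresh cells and 4.89e-05 against DMEM/F12). It reached the level of the filter in incubation medium alone, so these calls describe a gene that was tested for its level there. Counts that were not whole stood in 75% of CLDN22 libraries, and no fold change is given against DMEM/F12 spheroids, whose libraries held at most 3.33 counts. Between fresh cells and DMEM/F12 spheroids CLDN22 was called lower (adjusted p = 0.0181), but not without fresh cell replicate 1 (adjusted p = 0.0568; span of p over all settings tried 0.00611 to 0.0568). The 6 claudins under the filter reached at most 17.25 counts in a library (CLDN11), and CLDN17 had none.

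Summed over the 17 claudin rows, the level was 2418 to 3071 CPM in fresh cells, 3802 to 5493 in DMEM/F12 and 1978 to 2237 in incubation medium spheroids, with no overlap. CLDN4 alone averaged 1656, 2720 and 1011.5 CPM of mean sums of 2678, 4424 and 2071 CPM, so the sum follows that gene above all and does not describe the family. Against fresh cells 6 of 11 tested claudins were called higher and 4 lower in DMEM/F12 spheroids (median log2 fold change 0.44), beside 35.1% and 35.7% of all tested genes. In incubation medium spheroids 5 were higher and 5 lower (0.23), beside 35.8% and 35.8%. Between the media 1 was called higher in incubation medium and 4 lower (-0.21), beside 12.7% and 12.3% of all tested genes. The 1 called higher was CLDN22, which reached the level of the filter in incubation medium alone. CLDN22 and CLDN2, which each reached it in 1 group, are also among the calls against fresh cells.

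**Figure D2:**
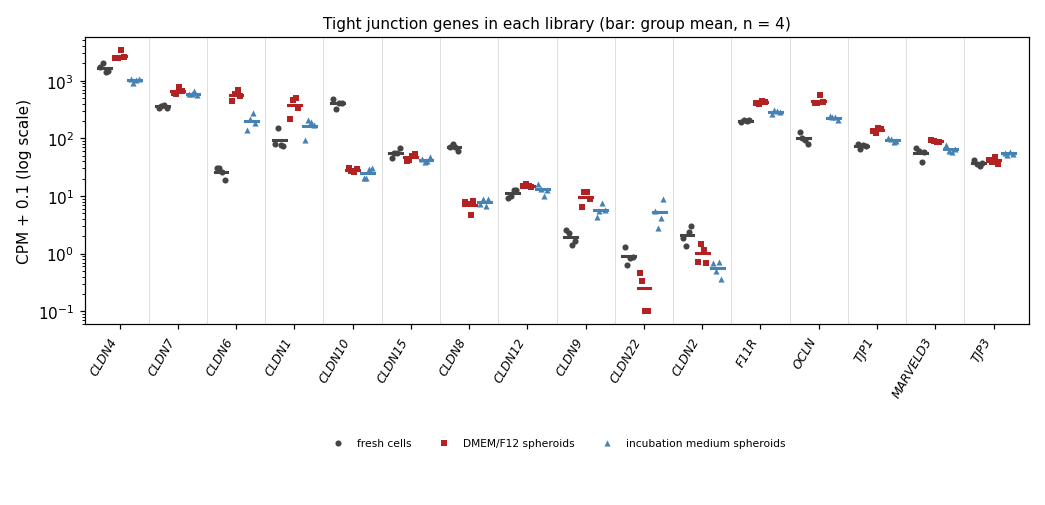
CPM + 0.1 on a log axis for the 11 tested claudins and the 5 other tight junction genes, ordered within each family by mean level. Points are libraries (circles fresh cells, squares DMEM/F12 spheroids, triangles incubation medium spheroids) and bars are means of 4. CLDN10 and CLDN8 stand far higher in fresh cells, CLDN6 in spheroids, and CLDN4 is highest in DMEM/F12 and lowest in incubation medium.

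The tight junction genes outside the claudin family, OCLN, F11R, TJP1, TJP3 and MARVELD3, were all tested. OCLN, which encodes occludin, was at 129, 100.1, 94.8 and 80.5 CPM in fresh cells, 402, 414, 561 and 429 in DMEM/F12 and 240.3, 234, 235 and 204 in incubation medium spheroids. Each group occupied its own range, in the order fresh cells, incubation medium, DMEM/F12. OCLN rose 4.46-fold in DMEM/F12 spheroids (log2 fold change 2.16, SE 0.14, adjusted p = 1.04e-08) and 2.26-fold in incubation medium spheroids (1.17, SE 0.14, adjusted p = 3.19e-06), with a log2 difference between the media of -0.98 (adjusted p = 0.000154). F11R, the junctional adhesion molecule JAM-A, was at 191, 212, 197 and 204 CPM in fresh cells, 406, 399, 447 and 428 in DMEM/F12 and 269, 306, 297 and 291 in incubation medium spheroids. The same order held without overlap. It rose 2.09-fold (log2 fold change 1.06, SE 0.072, adjusted p = 1.46e-08) and 1.45-fold (0.53, SE 0.072, adjusted p = 1.22e-05) and was lower in incubation medium than in DMEM/F12 (-0.53, adjusted p = 0.000128).

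TJP1, the scaffold ZO-1, was at 79.7, 64.2, 77.8 and 74.9 CPM in fresh cells, 135, 123, 149.5 and 142 in DMEM/F12 and 99.7, 95.8, 87.6 and 90.7 in incubation medium spheroids. Fresh cells were lowest and DMEM/F12 spheroids highest, again without overlap. It rose in DMEM/F12 spheroids (log2 fold change 0.89, SE 0.089, adjusted p = 6.09e-07) and, by a smaller step, in incubation medium spheroids (0.33, SE 0.089, adjusted p = 0.00376), and the media differed (-0.56, SE 0.087, adjusted p = 0.000421). TJP3, the related scaffold ZO-3, was at 41.2, 35.9, 33.1 and 37.04 CPM in fresh cells, 42.2, 39.3, 46.97 and 36.4 in DMEM/F12 and 54.6, 51.5, 58.1 and 53.6 in incubation medium spheroids. Here incubation medium spheroids alone stood above the rest, and the other groups overlapped. TJP3 rose in incubation medium (log2 fold change 0.56, SE 0.096, adjusted p = 0.000103) and was higher there than in DMEM/F12 (0.40, SE 0.093, adjusted p = 0.00591). It was not called in DMEM/F12 spheroids against fresh cells (0.16, SE 0.097, adjusted p = 0.149), although it was with library totals (log2 fold change 0.24, adjusted p = 0.0302) and with only whole counts (log2 fold change 0.24, adjusted p = 0.0437; span of p over all settings tried 0.0302 to 0.419).

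MARVELD3, a relative of occludin in the MARVEL family, was at 66.5, 59.7, 39.5 and 57.2 CPM in fresh cells, 92.3, 88.2, 87.3 and 86.8 in DMEM/F12 and 75.8, 61.3, 58.7 and 64.5 in incubation medium spheroids. All DMEM/F12 libraries were above the other groups, which overlapped. MARVELD3 rose in DMEM/F12 spheroids (log2 fold change 0.67, SE 0.13, adjusted p = 0.000346) and was not called in incubation medium spheroids (0.22, SE 0.13, adjusted p = 0.14), except without fresh cell replicate 1 (log2 fold change 0.33, adjusted p = 0.041; span of p over all settings tried 0.041 to 0.409). Its lower level in incubation medium than in DMEM/F12 (-0.45, SE 0.13, adjusted p = 0.0196) was lost without incubation medium replicates 2 or 3 (log2 fold change -0.42 to -0.40, adjusted p = 0.0574 to 0.0594; span of p over all settings tried 0.00248 to 0.0594). In the sum of these 5 genes the groups did not overlap, at 442 to 508 CPM in fresh cells, 1064 to 1292 in DMEM/F12 and 703 to 749 in incubation medium spheroids. Counts of calls were 4 higher and 0 lower in each medium against fresh cells, and 1 higher and 4 lower in incubation medium against DMEM/F12, with edgeR medians of 0.89, 0.53 and -0.53. For the falls against fresh cells, edgeR at an unadjusted p under 0.05 and DESeq2 also gave 0 in each medium. Shares over all tested genes, rises then falls, were 35.1% and 35.7% for DMEM/F12 and 35.8% and 35.8% for incubation medium against fresh cells. Between the media those shares were 12.7% and 12.3%.

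Cadherins gave 19 rows, of which 8 were tested. CDH1, which encodes E-cadherin, the main cadherin of epithelia, was at 382, 383, 434 and 396 CPM in fresh cells, 1142, 1208, 1352 and 1144 in DMEM/F12 and 609, 674, 588 and 552 in incubation medium spheroids. The groups were separate, in the order fresh cells, incubation medium, DMEM/F12. CDH1 rose 3.04-fold in DMEM/F12 spheroids (log2 fold change 1.60, SE 0.087, adjusted p = 1.73e-09) and 1.52-fold in incubation medium spheroids (0.60, SE 0.085, adjusted p = 1.8e-05), and its level in incubation medium was 2-fold lower than in DMEM/F12 (-1.0, SE 0.085, adjusted p = 3.97e-06).

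CDH5, known as VE-cadherin for its place in vascular endothelium, had the largest rise of the cadherins outside the floor. It was at 12.01, 12.2, 14.6 and 6.86 CPM in fresh cells, 124, 71.9, 176 and 60.8 in DMEM/F12 and 51.3, 33.8, 50.2 and 36.8 in incubation medium spheroids. DMEM/F12 replicates 1 and 3 were highest, and no groups overlapped. The rise was 9.42-fold in DMEM/F12 spheroids (log2 fold change 3.24, SE 0.33, adjusted p = 8.4e-07) and 3.76-fold in incubation medium spheroids (1.91, SE 0.34, adjusted p = 0.00014), with a lower level in incubation medium than in DMEM/F12 (-1.33, SE 0.29, adjusted p = 0.00387). All CDH5 counts were whole.

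Other endothelial markers were read beside it. KDR, the main receptor for VEGF, was at 12.2, 28.9, 21.3 and 21.4 CPM in fresh cells, 119, 63.5, 46.97 and 66.6 in DMEM/F12 and 54.9, 51.8, 33.6 and 102 in incubation medium spheroids. It rose in both media (log2 fold change 1.83, adjusted p = 0.000365, and 1.53, adjusted p = 0.00149). Among DMEM/F12 libraries, replicate 3 was highest in CDH5 and lowest in KDR, and replicate 1 was highest in KDR and next to replicate 3 in CDH5. Which cells the CDH5 reads came from was not tested. PECAM1, another junction protein of endothelium and leukocytes, was at 15.5, 14.7, 16.1 and 14.1 CPM in fresh cells, 8.15, 8.83, 6.48 and 8.16 in DMEM/F12 and 7.64, 8.81, 7.14 and 8.597 in incubation medium spheroids. It fell in both media (log2 fold change -0.93, adjusted p = 2.01e-05, and -0.91, adjusted p = 2.48e-05). PLVAP, of endothelial diaphragms, averaged 2.62 ± 0.687 CPM in fresh cells, 0.337 ± 0.330 in DMEM/F12 and 0.222 ± 0.0593 in incubation medium spheroids and fell too (adjusted p = 0.000131 and 5.33e-05). TIE1, an endothelial receptor kinase, averaged 3.71 ± 0.794 CPM in fresh cells, 5.14 ± 0.861 in DMEM/F12 and 7.92 ± 4.25 in incubation medium spheroids, and rose in incubation medium (log2 fold change 1.08, adjusted p = 0.00686), where replicate 4 was highest at 14.2 CPM, with 0.47, adjusted p = 0.211 in DMEM/F12. ESAM, an endothelial adhesion molecule, averaged 0.662 ± 0.530, 1.224 ± 0.259 and 1.55 ± 0.325 CPM and rose in incubation medium too (1.24, adjusted p = 0.0194), with 0.90, adjusted p = 0.0866 in DMEM/F12. VWF, a defining endothelial gene, had 0 counts in fresh cells as in DMEM/F12 spheroids and 3 in all incubation medium libraries together. TEK, under the filter, averaged 1.51 ± 0.339 CPM in fresh cells, 0.452 ± 0.234 in DMEM/F12 and 0.511 ± 0.269 in incubation medium spheroids. Every spheroid library lay below every fresh cell library. The summed level of the 7 endothelial markers, CDH5 left out, was 36.6 to 51.7 CPM in fresh cells, 59.5 to 134 in DMEM/F12 and 48.7 to 127 in incubation medium spheroids. KDR alone averaged 20.9, 74.2 and 60.6 CPM, so the sum follows that gene above all. Of the 5 markers tested, 1 was called higher and 2 lower in DMEM/F12 spheroids, and 3 higher and 2 lower in incubation medium spheroids, against fresh cells. As shares these were 20% and 40% in DMEM/F12, beside 35.1% and 35.7% of all tested genes, and 60% and 40% in incubation medium, beside 35.8% and 35.8%.

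**Figure D3:**
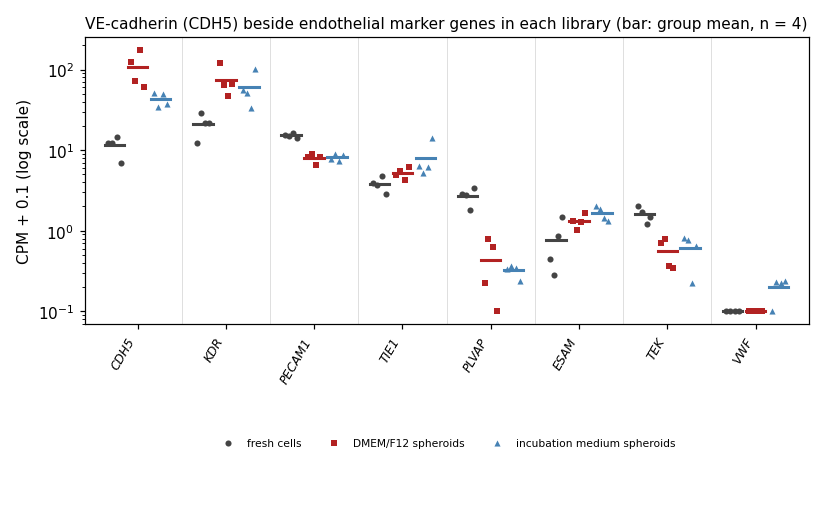
CPM + 0.1 on a log axis for CDH5 and 7 endothelial marker genes. Points are libraries, bars are means of 4. CDH5 and KDR are higher in both spheroid groups and TIE1 and ESAM in incubation medium spheroids, while PECAM1, PLVAP and TEK are lower in both and VWF lies at or near 0.

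CDH13, a cadherin held by a lipid anchor with no cytoplasmic tail, fell. It was at 180.5, 240.1, 267 and 262 CPM in fresh cells, 179, 119, 129.8 and 153 in DMEM/F12 and 111, 101, 103 and 121 in incubation medium spheroids. Fresh cell replicate 1 lay just above the highest DMEM/F12 library, and all incubation medium libraries were lower still than the fresh cells. CDH13 fell 1.63-fold in DMEM/F12 spheroids (log2 fold change -0.71, SE 0.14, adjusted p = 0.000382) and 2.18-fold in incubation medium spheroids (-1.13, SE 0.14, adjusted p = 5.74e-06). The media overlapped, and their difference (-0.42, SE 0.14, adjusted p = 0.0423) was lost without DMEM/F12 replicates 1 or 4 or incubation medium replicates 1, 2 or 3 (log2 fold change -0.43 to -0.30, adjusted p = 0.0705 to 0.137; span of p over all settings tried 0.0199 to 0.137). CDH6, also named K-cadherin, was at 35.2, 42.1, 34.2 and 48.99 CPM in fresh cells, 54.9, 95.02, 87.2 and 69.04 in DMEM/F12 and 30.7, 48.6, 60.3 and 32.2 in incubation medium spheroids. DMEM/F12 spheroids exceeded all fresh cells, and incubation medium spheroids overlapped both. It rose in DMEM/F12 (log2 fold change 0.93, SE 0.22, adjusted p = 0.00162) and was lower in incubation medium than there (-0.83, SE 0.22, adjusted p = 0.0113), with 0.1 in incubation medium against fresh cells (95% interval -0.38 to 0.58, adjusted p = 0.703).

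CDH2, which encodes N-cadherin, typical of mesenchymal and neural cells, averaged 4.79 ± 0.353 CPM in fresh cells, 9.71 ± 2.46 in DMEM/F12 and 6.38 ± 1.03 in incubation medium spheroids (SD, n = 4). It rose in DMEM/F12 spheroids (log2 fold change 1.02, SE 0.20, adjusted p = 0.000368). In incubation medium it was not called against fresh cells (0.41, SE 0.21, adjusted p = 0.0847), except without incubation medium replicate 3 (log2 fold change 0.52, adjusted p = 0.0439; span of p over all settings tried 0.0439 to 0.186). Its lower level in incubation medium than in DMEM/F12 (-0.60, SE 0.19, adjusted p = 0.0283) was lost without DMEM/F12 replicates 3 or 4 or incubation medium replicates 3 or 4 (log2 fold change -0.61 to -0.43, adjusted p = 0.0568 to 0.0956; span of p over all settings tried 0.012 to 0.0956), with only the groups compared (log2 fold change -0.60, adjusted p = 0.0514) and with thinned counts (log2 fold change -0.51, adjusted p = 0.0913). CDH24 averaged 6.33 ± 1.41 CPM in fresh cells, 16.9 ± 0.955 in DMEM/F12 and 11.9 ± 1.501 in incubation medium spheroids and rose in both media (log2 fold change 1.41, SE 0.16, adjusted p = 2e-06, and 0.90, SE 0.16, adjusted p = 0.00016). It was lower in incubation medium than in DMEM/F12 (-0.50, SE 0.14, adjusted p = 0.0192), but not without incubation medium replicate 2 (log2 fold change -0.42, adjusted p = 0.064; span of p over all settings tried 0.00539 to 0.064).

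CDH23, known from the links between sensory hair bundles, averaged 23.2 ± 2.09 CPM in fresh cells, 6.75 ± 2.59 in DMEM/F12 and 11.4 ± 6.03 in incubation medium spheroids and fell in both media (log2 fold change -1.78, SE 0.31, adjusted p = 0.000126, and -1.03, SE 0.29, adjusted p = 0.00602). In RefSeq its locus overlaps PSAP, whose log2 fold changes were 1.27 and 0.49 against fresh cells and -0.78 between the media, and VSIR, with 0.43, 1.2 and 0.78. The strand used in counting is not given in the sources used here. RefSeq loci were matched to rows by symbol alone, and whether the counted loci overlap in the same way was not tested. Between the media CDH23 was not called (0.75, SE 0.31, adjusted p = 0.098), but was with the replicate block (log2 fold change 0.73, adjusted p = 0.028; span of p over all settings tried 0.028 to 0.374). CDH22 held at most 3 counts in any fresh cell library, and reached 1.95, 1.97, 2.12 and 2.04 CPM in DMEM/F12 and 0.477, 0.934, 1.60 and 2.28 in incubation medium spheroids. It was called higher in both (adjusted p = 0.000885 and 0.0089), with no fold change given since fresh cells did not exceed the floor. CDH22 reached the filter level of 1.3 CPM in DMEM/F12 spheroids alone. These calls therefore describe a gene that was tested for its level in that group and are no separate support for its rise. The 11 cadherins under the filter reached at most 11 counts (CDH11, a mesenchymal cadherin), and CDH17 and CDH19 had none. The sum over all cadherin rows was 649 to 784 CPM in fresh cells, 1464 to 1783 in DMEM/F12 and 784 to 883 in incubation medium spheroids.

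**Figure D4:**
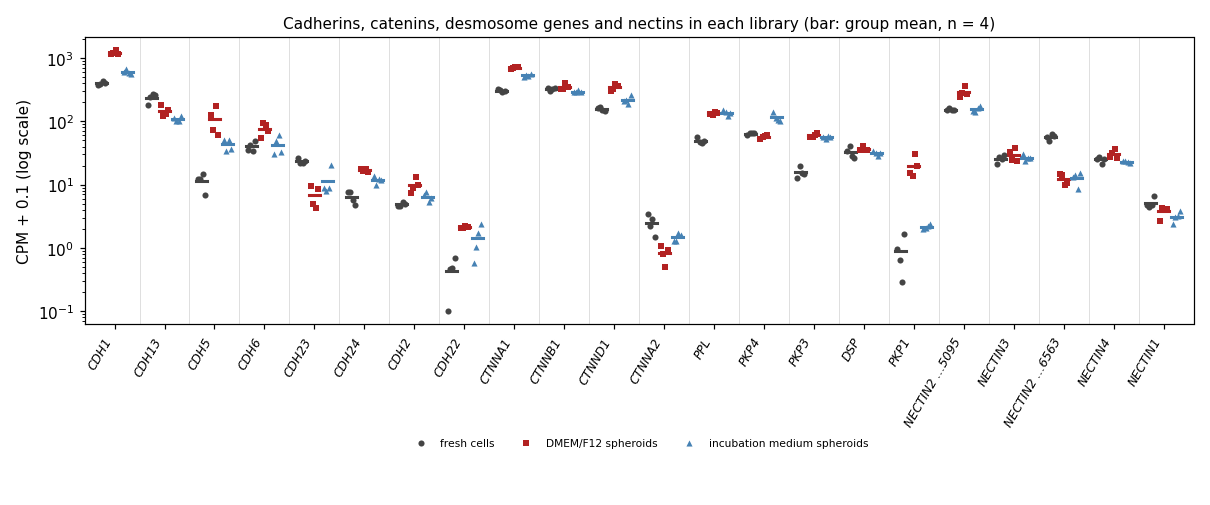
CPM + 0.1 on a log axis for the tested cadherins, catenins, desmosome genes and nectins, ordered within each family by mean level. Points are libraries and bars are means of 4; the rows of NECTIN2 are told apart by the last digits of their identifiers. CDH1, CTNNA1, CTNND1 and PKP1 are highest in DMEM/F12 spheroids, PKP4 in incubation medium spheroids.

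The catenins moved unequally. CTNNA1, alpha-catenin, which joins the cadherin complex to actin, was at 320.1, 314, 292 and 298 CPM in fresh cells, 660.0, 690.0, 711 and 732 in DMEM/F12 and 508, 546, 525 and 563 in incubation medium spheroids. The groups did not overlap, with fresh cells lowest. CTNNA1 rose 2.28-fold in DMEM/F12 spheroids (log2 fold change 1.19, SE 0.069, adjusted p = 3.44e-09) and 1.75-fold in incubation medium spheroids (0.81, SE 0.069, adjusted p = 1.28e-07), and the media differed (-0.38, SE 0.068, adjusted p = 0.00101). CTNND1, delta-catenin, which keeps cadherins at the membrane, was at 163, 169, 149.6 and 144 CPM in fresh cells, 299, 322, 388 and 364 in DMEM/F12 and 209.7, 216, 191 and 258 in incubation medium spheroids. Its order was the same, without overlap. It rose 2.19-fold (log2 fold change 1.13, SE 0.11, adjusted p = 3.57e-07) and 1.40-fold (0.48, SE 0.11, adjusted p = 0.000968) and was lower in incubation medium than in DMEM/F12 (-0.65, SE 0.11, adjusted p = 0.000537).

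CTNNB1, beta-catenin, which binds the cadherin tail and also acts in Wnt signalling, was at 330.4, 301, 328 and 334 CPM in fresh cells, 329, 324, 402 and 351 in DMEM/F12 and 286, 286, 308 and 289 in incubation medium spheroids. Each spheroid group overlapped the fresh cells, and the media were just separate. CTNNB1 was not called in DMEM/F12 (log2 fold change 0.12, SE 0.08, adjusted p = 0.192, 95% interval -0.051 to 0.29) or in incubation medium (-0.14, SE 0.08, adjusted p = 0.119, 95% interval -0.32 to 0.027), except in DMEM/F12 with library totals (log2 fold change 0.19, adjusted p = 0.036; span of p over all settings tried 0.036 to 0.441). In RefSeq CTNNB1 overlaps ULK4, whose log2 fold changes were -2.12 and -1.97. Between the media CTNNB1 was lower in incubation medium (-0.27, SE 0.08, adjusted p = 0.0256), a call lost without DMEM/F12 replicates 3 or 4 or incubation medium replicates 1, 2 or 4 (log2 fold change -0.27 to -0.19, adjusted p = 0.0523 to 0.0776; span of p over all settings tried 0.00346 to 0.0776). CTNNA2, the neural alpha-catenin, averaged 2.41 ± 0.838 CPM in fresh cells, 0.727 ± 0.247 in DMEM/F12 and 1.37 ± 0.204 in incubation medium spheroids. It fell in DMEM/F12 spheroids (log2 fold change -1.70, SE 0.34, adjusted p = 0.000407). CTNNA2 reached the filter level of 1.3 CPM in fresh cells alone, so its falls describe a gene that was tested for its level there. Its fall in incubation medium (-0.82, SE 0.31, adjusted p = 0.0288) was lost without fresh cell replicates 1 or 3 or incubation medium replicates 1 or 2 (log2 fold change -0.74 to -0.62, adjusted p = 0.0742 to 0.113; span of p over all settings tried 0.00965 to 0.124), and also with DESeq2 (log2 fold change -0.83, adjusted p = 0.0701), with no filter (log2 fold change -0.76, adjusted p = 0.0825), with only whole counts (log2 fold change -0.73, adjusted p = 0.0534) and with thinned counts (log2 fold change -0.59, adjusted p = 0.124). Between the media CTNNA2 was called with thinned counts alone (log2 fold change 1.26, adjusted p = 0.0367; span of p over all settings tried 0.0367 to 0.187).

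Desmosome genes were represented by the plakins PPL and DSP and the plakophilins PKP1, PKP3 and PKP4. No row carried a desmoglein, desmocollin or plakoglobin symbol, so those were not analysed here. PPL, which encodes periplakin, was at 56.4, 46.99, 45.2 and 48.02 CPM in fresh cells, 131, 125, 142 and 137 in DMEM/F12 and 150.1, 141, 121 and 136 in incubation medium spheroids. All spheroid libraries lay above all fresh cells, and the media overlapped. PPL rose 2.72-fold (log2 fold change 1.44, SE 0.093, adjusted p = 8.57e-09) and 2.78-fold (1.48, SE 0.093, adjusted p = 6.63e-09), with 0.034 between the media (95% interval -0.15 to 0.22, adjusted p = 0.821). PKP3, a plakophilin of simple and stratified epithelia, was at 12.7, 19.4, 15.3 and 14.5 CPM in fresh cells, 57.3, 56.9, 61.3 and 65.2 in DMEM/F12 and 56.9, 51.9, 59.3 and 57.4 in incubation medium spheroids. The picture was that of PPL. It rose 3.88-fold (log2 fold change 1.96, SE 0.11, adjusted p = 3.17e-09) and 3.64-fold (1.86, SE 0.11, adjusted p = 4.94e-09), and the media differed by -0.093 (95% interval -0.31 to 0.12, adjusted p = 0.541).

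PKP1, a plakophilin typical of stratified epithelia, separated the media most widely among genes above the floor. It was at 0.870, 0.538, 0.187 and 1.57 CPM in fresh cells, 15.3, 13.5, 30.8 and 19.8 in DMEM/F12 and 1.91, 2, 2.09 and 2.28 in incubation medium spheroids. DMEM/F12 replicate 3 was highest, and the incubation medium libraries lay close together just above the fresh cells. PKP1 rose 24.8-fold in DMEM/F12 spheroids (log2 fold change 4.63, SE 0.38, adjusted p = 9.34e-08) and was 9.51-fold lower in incubation medium than in DMEM/F12 (-3.25, SE 0.31, adjusted p = 9.48e-06). Its rise in incubation medium against fresh cells (1.38, SE 0.48, adjusted p = 0.019), from 17 summed counts to 65, was lost without fresh cell replicates 2 or 3 (log2 fold change 1.07 to 1.25, adjusted p = 0.0534 to 0.058; span of p over all settings tried 0.006 to 0.058). PKP4, a plakophilin relative found at desmosomes and adherens junctions, went the other way between the media, at 61.4, 64.9, 64.9 and 65.3 CPM in fresh cells, 51.8, 56.2, 58.4 and 59.9 in DMEM/F12 and 139.9, 113, 106 and 102 in incubation medium spheroids. Every incubation medium library stood above all others. PKP4 rose in incubation medium (log2 fold change 0.85, SE 0.097, adjusted p = 2.33e-06; 1.03, SE 0.097, adjusted p = 8.37e-06 against DMEM/F12). In DMEM/F12 it was -0.18 against fresh cells, not called although no library overlapped (adjusted p = 0.114). DSP, which encodes desmoplakin and links desmosomes to keratin, averaged 32.2 ± 6.43 CPM in fresh cells, 36.6 ± 2.51 in DMEM/F12 and 31.4 ± 2.42 in incubation medium spheroids. It was not called in DMEM/F12 (log2 fold change 0.18, SE 0.12, adjusted p = 0.197), except without fresh cell replicate 2 (log2 fold change 0.32, adjusted p = 0.0189; span of p over all settings tried 0.0189 to 0.467), nor in incubation medium (-0.037, SE 0.12, adjusted p = 0.8). The sum over the 5 genes was 154 to 173 CPM in fresh cells, 290.2 to 328 in DMEM/F12 and 317 to 383 in incubation medium spheroids.

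Connexins went in opposite directions. GJA1, the widespread connexin of gap junctions in many tissues, was at 133, 119, 104 and 129.9 CPM in fresh cells, 14.2, 18, 11.6 and 18.01 in DMEM/F12 and 28.8, 39.2, 20.6 and 29.7 in incubation medium spheroids. Fresh cells were far above the spheroids, and incubation medium spheroids above DMEM/F12 spheroids, without overlap. GJA1 fell 7.83-fold in DMEM/F12 (log2 fold change -2.97, SE 0.18, adjusted p = 5.11e-09) and 4.12-fold in incubation medium (-2.04, SE 0.17, adjusted p = 1.04e-07), and was higher in the latter (0.93, SE 0.18, adjusted p = 0.00201). GJB1, a connexin of liver and other epithelia, was at 25.9, 24.8, 29.5 and 24.7 CPM in fresh cells, 4.26, 2.79, 1.98 and 3.84 in DMEM/F12 and 7.87, 7.74, 10.95 and 8.87 in incubation medium spheroids. The order was again fresh cells, incubation medium, DMEM/F12. It fell 8.08-fold (log2 fold change -3.01, SE 0.20, adjusted p = 9.46e-09) and 2.96-fold (-1.56, SE 0.18, adjusted p = 1.94e-06), with 1.45, SE 0.20, adjusted p = 0.00017 between the media.

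GJC1, a connexin, averaged 0.968 ± 0.450 CPM in fresh cells, 8.98 ± 2.01 in DMEM/F12 and 4.19 ± 1.58 in incubation medium spheroids (SD, n = 4), without overlap. It rose in both (log2 fold change 3.19, SE 0.37, adjusted p = 2.48e-06, and 2.09, SE 0.39, adjusted p = 0.000243) and was lower in incubation medium (-1.10, SE 0.28, adjusted p = 0.0106). GJB5, another connexin, averaged 2.44 ± 0.248 CPM in fresh cells, 4.23 ± 0.553 in DMEM/F12 and 1.32 ± 0.257 in incubation medium spheroids. It rose in DMEM/F12 (log2 fold change 0.79, SE 0.21, adjusted p = 0.00361) and fell in incubation medium (-0.86, SE 0.24, adjusted p = 0.00598), and the media differed (-1.65, SE 0.21, adjusted p = 1e-04). The 5 connexins under the filter reached at most 6 counts (GJB7). Summed over 10 rows, connexins were at 149.6 to 180.1 CPM in fresh cells, 71.2 to 86.3 in DMEM/F12 and 67.3 to 85.2 in incubation medium spheroids.

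**Figure D5:**
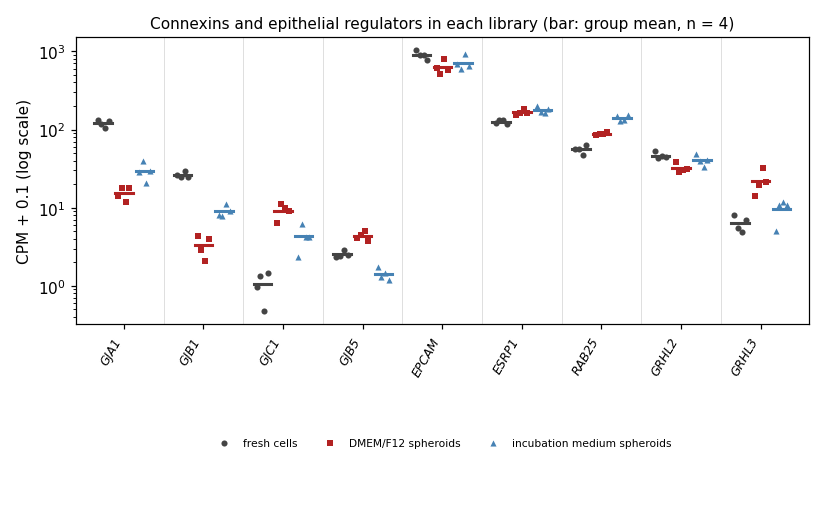
CPM + 0.1 on a log axis for 4 tested connexins and 5 epithelial regulators, ordered within each family by mean level. Points are libraries and bars are means of 4. GJA1 and GJB1 are highest in fresh cells, GJC1 in DMEM/F12 spheroids and RAB25 in incubation medium spheroids.

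Nectins are immunoglobulin-like adhesion proteins of the adherens junction. NECTIN2 stood on 2 rows whose values differed in direction. The row ENSSSCG00025055095 was at 151, 161, 150.0 and 151 CPM in fresh cells, 242, 278, 363 and 275 in DMEM/F12 and 147, 141, 163 and 178 in incubation medium spheroids. DMEM/F12 spheroids were above the other groups, which overlapped. It rose in DMEM/F12 (log2 fold change 0.92, SE 0.11, adjusted p = 5.6e-06), was 0.037 in incubation medium against fresh cells (95% interval -0.21 to 0.28, adjusted p = 0.786) and was lower there than in DMEM/F12 (-0.88, SE 0.11, adjusted p = 9.5e-05). The row ENSSSCG00025056563 was at 55.9, 49.7, 61.9 and 58.01 CPM in fresh cells, 14.7, 13.9, 9.66 and 10.4 in DMEM/F12 and 12.9, 14.02, 8.49 and 15.2 in incubation medium spheroids. Its fresh cell libraries were all above the spheroids, and the media overlapped. It fell 4.61-fold (log2 fold change -2.20, SE 0.17, adjusted p = 4.15e-08) and 4.46-fold (-2.16, SE 0.17, adjusted p = 5.31e-08). How reads fell to the 2 rows is not given in the sources used here, and no direction is given for NECTIN2 as a whole.

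NECTIN3 averaged 25.8 ± 3.84 CPM in fresh cells, 29.6 ± 6.71 in DMEM/F12 and 26.7 ± 2.93 in incubation medium spheroids (SD, n = 4) and was not called in any comparison (adjusted p = 0.272, 0.759 and 0.547); its libraries all held counts that were not whole. NECTIN4 averaged 24.9 ± 2.58 CPM in fresh cells, 30.1 ± 4.82 in DMEM/F12 and 22.9 ± 1.02 in incubation medium spheroids. It was not called in DMEM/F12 against fresh cells (log2 fold change 0.27, SE 0.12, adjusted p = 0.0526), but was without DMEM/F12 replicates 1 or 4 or fresh cell replicate 2 (log2 fold change 0.33 to 0.36, adjusted p = 0.0187 to 0.0405; span of p over all settings tried 0.0131 to 0.149), with library totals (log2 fold change 0.35, adjusted p = 0.0131) and with no filter (log2 fold change 0.34, adjusted p = 0.0264). Its lower level in incubation medium than in DMEM/F12 (-0.40, SE 0.12, adjusted p = 0.0221) was lost without DMEM/F12 replicates 2 or 3 or incubation medium replicates 3 or 4 (log2 fold change -0.39 to -0.29, adjusted p = 0.0523 to 0.0696; span of p over all settings tried 0.00506 to 0.0696). NECTIN1 averaged 5.04 ± 0.971 CPM in fresh cells, 3.70 ± 0.767 in DMEM/F12 and 3.01 ± 0.613 in incubation medium spheroids and fell in incubation medium (log2 fold change -0.74, SE 0.23, adjusted p = 0.0102). In DMEM/F12 it was called with the replicate block alone (log2 fold change -0.45, adjusted p = 0.0496), against -0.44, SE 0.23, adjusted p = 0.0943 without it (span of p over all settings tried 0.0496 to 0.28).

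The last group held genes that regulate epithelial traffic, splicing and transcription. RAB25, a GTPase of apical recycling endosomes, was at 56.4, 55.96, 47.5 and 63.1 CPM in fresh cells, 84.4, 87.8, 87.3 and 92.9 in DMEM/F12 and 150.1, 129, 134 and 154 in incubation medium spheroids. The groups were separate, in the order fresh cells, DMEM/F12, incubation medium. RAB25 rose 1.58-fold in DMEM/F12 (log2 fold change 0.66, SE 0.093, adjusted p = 1.9e-05) and 2.54-fold in incubation medium (1.35, SE 0.094, adjusted p = 1.72e-08), and was higher in incubation medium (0.68, SE 0.09, adjusted p = 0.000112). ESRP1, which directs epithelial splicing, was at 120.4, 132, 131 and 118 CPM in fresh cells, 154, 165, 183 and 161 in DMEM/F12 and 202, 165, 164 and 186 in incubation medium spheroids. All spheroids were above the fresh cells and the media overlapped. It rose in both media (log2 fold change 0.40, SE 0.088, adjusted p = 0.000906, and 0.51, SE 0.088, adjusted p = 0.00011), with 0.11 between them (95% interval -0.074 to 0.30, adjusted p = 0.381).

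The Grainyhead-like transcription factors, which control junction genes in many epithelia, moved in opposite directions in DMEM/F12 spheroids. GRHL2 averaged 46.2 ± 4.26 CPM in fresh cells, 31.8 ± 4.20 in DMEM/F12 and 40.1 ± 6.38 in incubation medium spheroids (SD, n = 4) and fell in DMEM/F12 (log2 fold change -0.54, SE 0.13, adjusted p = 0.00145). It was not called in incubation medium against fresh cells (-0.20, SE 0.12, adjusted p = 0.155), except without incubation medium replicate 1 (log2 fold change -0.29, adjusted p = 0.0445; span of p over all settings tried 0.0372 to 0.485) and with the replicate block (log2 fold change -0.21, adjusted p = 0.0372). Nor was it called between the media (0.34, SE 0.12, adjusted p = 0.0623), except without DMEM/F12 replicate 1 or incubation medium replicate 3 (log2 fold change 0.42 to 0.43, adjusted p = 0.0234 to 0.0244; span of p over all settings tried 0.00762 to 0.187) and with the replicate block (log2 fold change 0.33, adjusted p = 0.00762). Its locus overlaps NCALD in RefSeq, whose log2 fold changes were -1.38 and -1.85 against fresh cells. GRHL3 averaged 6.28 ± 1.43 CPM in fresh cells, 21.7 ± 7.81 in DMEM/F12 and 9.60 ± 3.17 in incubation medium spheroids and rose in DMEM/F12 (log2 fold change 1.78, SE 0.30, adjusted p = 9.26e-05). It was lower in incubation medium than there (-1.18, SE 0.28, adjusted p = 0.00623) and not called in incubation medium against fresh cells (0.61, SE 0.31, adjusted p = 0.0958), except without incubation medium replicate 1 (log2 fold change 0.85, adjusted p = 0.0129; span of p over all settings tried 0.0129 to 0.203). GRHL1 was under the filter, with at most 4 counts in a library.

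Genes that work with these junctions were read from 3 further lists. A first list of 33 junction genes not matched by the symbol rule had 19 tested rows, of which 13 were called higher and 4 lower in DMEM/F12 spheroids against fresh cells, 11 and 5 in incubation medium against fresh cells, and 2 and 5 in incubation medium against DMEM/F12. As shares of those tested, 68.4% rose and 21.1% fell in DMEM/F12, against 35.1% and 35.7% of all tested genes, and 57.9% and 26.3% in incubation medium, against 35.8% and 35.8%. Between the media 10.5% were higher and 26.3% lower, against 12.7% and 12.3% of all tested genes. Median log2 fold changes were 1.09, 0.82 and -0.29. ACTN4, an actin cross-linker, averaged 281 ± 30.7 CPM in fresh cells, 1596 ± 81.7 in DMEM/F12 and 1052 ± 117 in incubation medium spheroids and rose in both media (2.50, adjusted p = 1.47e-10, and 1.90, adjusted p = 1.4e-09). PERP, a desmosomal membrane protein, averaged 1224 ± 101, 1098 ± 108 and 613 ± 27.1 CPM. It fell in incubation medium (-1.0, adjusted p = 1.62e-07), with -0.16, adjusted p = 0.121 in DMEM/F12. KRT8, a keratin of simple epithelia, averaged 832 ± 26.95, 1450.4 ± 86.4 and 1812 ± 734 CPM and rose in both (0.80, adjusted p = 0.00173, and 1.12, adjusted p = 0.000109); its symbol also stood on a second row, which averaged 0.142 CPM in fresh cells, 1.53 in DMEM/F12 and 2.97 in incubation medium spheroids.

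Of 22 apical-basal polarity genes, 16 were tested. In DMEM/F12 spheroids 9 were called higher and 4 lower than in fresh cells (median 0.26), in incubation medium spheroids 6 higher and 5 lower (-0.0073), and between the media 0 were called higher and 5 lower in incubation medium (-0.15; DESeq2 also called 0 higher, and edgeR had 1 higher at an unadjusted p under 0.05). Of those tested, 56.2% rose and 25% fell in DMEM/F12, against 35.1% and 35.7% of all tested genes, and 37.5% and 31.2% in incubation medium, against 35.8% and 35.8%. The 31.2% lower between the media stand against 12.3%. In incubation medium against fresh cells the shares were near those of all genes. CDC42, a GTPase that sets polarity, averaged 315 ± 25.6 CPM in fresh cells, 671 ± 58.3 in DMEM/F12 and 564 ± 36.4 in incubation medium spheroids and rose in both (1.09, adjusted p = 6.9e-08, and 0.84, adjusted p = 8.63e-07). STK11, a polarity kinase, averaged 76.6 ± 8.42, 128 ± 5.63 and 116 ± 7.76 CPM and rose as well (0.75, adjusted p = 3.59e-06, and 0.60, adjusted p = 2.92e-05).

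The list of regulators of the epithelial-mesenchymal balance and of mesenchymal genes had 9 tested genes of 14. Against fresh cells 3 were called higher and 1 lower in DMEM/F12, and 3 higher and 3 lower in incubation medium. Between the media 1 was higher and 1 lower (11.1% and 11.1%, near the 12.7% and 12.3% of all tested genes). In shares of the tested genes, 33.3% rose and 11.1% fell in DMEM/F12, against 35.1% and 35.7% of all tested genes, and 33.3% and 33.3% in incubation medium, against 35.8% and 35.8%. Those for rises, and for falls in incubation medium, were near those of all genes. SNAI1, a repressor of CDH1, averaged 8.15 ± 0.861 CPM in fresh cells, 2.41 ± 0.544 in DMEM/F12 and 1.94 ± 0.796 in incubation medium spheroids and fell in both (-1.75, adjusted p = 2.49e-05, and -2.08, adjusted p = 6.5e-06). SNAI2, a related repressor, averaged 3.58 ± 1.49, 2.16 ± 0.430 and 1.89 ± 0.803 CPM. It was not called in DMEM/F12 (-0.74, adjusted p = 0.0702) and fell in incubation medium (-0.93, adjusted p = 0.0294). ZEB2, another repressor of CDH1, was near the floor at 1.23 ± 0.593, 1.41 ± 1.04 and 0.730 ± 0.391 CPM and not called (adjusted p = 0.749, 0.275 and 0.234). ELF3, a transcription factor of epithelia, averaged 101 ± 7.62, 392 ± 28.3 and 590.5 ± 139.7 CPM and rose in both (1.96, adjusted p = 1.71e-08, and 2.55, adjusted p = 1.8e-09). S100A4, a gene often raised in motile cells, averaged 4.22 ± 1.29, 400.5 ± 171 and 283 ± 113 CPM and rose in both (6.56, adjusted p = 7.22e-09, and 6.06, adjusted p = 1.36e-08).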

How the data were processed

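Poly(A)+ RNA from 12 libraries, 4 per group, was read from the 3′ end. The authors deposited expected counts per gene, most of them whole and 19.1% to 20.5% of the nonzero values per library not whole, and CPM, which equal the deposited count divided by the library total within 5e-06. Per the submitters' processing notes, fastp 0.24.0, STAR 2.7.11, SAMtools 1.22.1 and featureCounts of Subread 2.1.1 were used. The genome build and the strand setting are not given in the sources used here. Of 30553 rows, 92 spike-ins were left out, and 17202 of the 30461 gene rows (56.5%) carried no symbol. Members were found by symbol. Of 101 RefSeq pig symbols (Sscrofa11.1) that match the rule, 70 were carried by a row and the other 31 were not analysed here. Overlaps and neighbours in RefSeq were matched to rows by symbol alone. Of the member identifiers, 0 were found in the reference list of gene names, so these loci may differ from those counted. Sequences were not used here.

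Counts were rounded to whole numbers. Genes were filtered with filterByExpr by group, which kept 14070, TMM-scaled, and tested with edgeR 4.0.16 in R 4.3.3 (glmQLFit and glmQLFTest, 1 fit of all 12 libraries, Benjamini-Hochberg over the genes tested). The script was tested on simulated data. Total counts of 5045187 to 8603774 limit precision for genes with few counts, and floors cover counting error only. Replicates of a group correlated at 0.974 to 0.985, and no pair agreed within sampling noise. Replicate numbers paired the samples: deviations from the group means correlated between same-numbered libraries at 0.226 to 0.284, 0.196 to 0.293 and 0.394 to 0.516 in the 3 comparisons, each above 0.1, and at -0.318 to 0.0233 between others. The pairing comes from this check alone, as the labels name no shared animal or day.

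All 12 values are given for CLDN4, CDH1, EPCAM, members averaging at least 50 CPM, and the 5 largest called rises and falls per comparison with at least 5 CPM and no overlap. Up to 4 genes per further list, by mean CPM of at least 20, and the EMT repressors were named; 1 member and 1 list gene that the rule names are not reported here, though they stay in the counts and sums. Members and lists were chosen with earlier results of these data known. Alternatives were DESeq2 1.42.0, other scalings and filters, a replicate block, thinned counts, whole counts only, counts rounded down, only the groups compared and leaving out each library.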

Additional observations from a re-analysis of the deposited data

Results flagged for a closer look

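In 12 of the 144 groups of 4 libraries checked (8.33%; chance gives about 1 in 20), 1 library stood apart from the other 3. In DMEM/F12 replicate 3, CLDN4 was at 3437.5 CPM against 2436.5 to 2559.6 in the others, and OCLN was at 561 against 402 to 429. The rise of each gene against fresh cells was called without this library too. Incubation medium replicate 4 held CDH23 at 20.4 CPM against 7.74 to 8.83, and OCLN at 204 against 234 to 240.3. Incubation medium replicate 1 held GRHL3 at 4.89 CPM against 10.8 to 11.8, and replicate 3 held CTNNB1 at 308 against 286 to 289. Fresh cell replicate 2 held CLDN1 at 148.5 CPM against 72.5 to 80.9, and NECTIN2 (ENSSSCG00025055095) at 161 against 149.96 to 150.91. Fresh cell replicate 3 held GJB5 at 2.80 CPM against 2.26 to 2.35, and replicate 1 held PKP4 at 61.4 against 64.9 to 65.3. DMEM/F12 replicate 2 held DSP at 40.3 CPM against 34.8 to 35.7, and replicate 1 held NECTIN1 at 2.55 against 3.97 to 4.18.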

How the results depend on the processing

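The counts of called members stayed within 1.5 times the reported ones under every alternative run except the use of only those genes whose counts were whole in every library. That left 13 members among 5923 tested genes, of which 8 were higher and 3 lower in DMEM/F12 spheroids against fresh cells, 8 and 3 in incubation medium spheroids against fresh cells, and 1 and 5 in incubation medium against DMEM/F12; fewer genes are tested there by construction. With the replicate block, 28 members were higher and 14 lower in DMEM/F12, 23 and 15 in incubation medium, and 8 and 24 between the media, and beyond the genes named beside their results the block changed no other call. Leaving out 1 library gave 27 to 29 higher and 11 to 13 lower, 21 to 24 and 12 to 14, and 6 to 7 and 19 to 23, in the same order. Of 823 gene values per comparison under alternatives, 4, 15 and 27 lost a call, 14, 13 and 5 gained one, and none of the called ones changed sign. Genes near the floor, such as CDH22 and CLDN22, are limited by depth.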
